A study of Rattus norvegicus with 5 samples.

Results

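The genes described here are 43 genes of the Wnt pathway and of the receptors for R-spondins, measured by 43 of the 10141 probe sets on arrays of rat tendon stem/progenitor cells (rTSPCs). Members were chosen by gene symbol and not by a measured value. A symbol qualified if it began with any of 12 stems (Wnt, Fzd, Sfrp, Dkk, Dvl, Axin, Rspo, Tle, Tcf7, Csnk1, Gsk3 or Nkd) or was 1 of 15 further names, and 5 of those names (Lgr6, Ryk, Znrf3, Rnf43 and Wif1) were not analysed here. The 7240 probe sets with 1 gene symbol were searched in this way. The other 2901 probe sets, with no symbol or with more than 1, were not searched. The cells came from the Achilles tendons of male Sprague-Dawley rats aged 3 months and were selected as colonies before subculture. Both groups were taken to passage 12, a model of replicative senescence. POG-treated rTSPCs received 20 μM prim-O-glucosylcimifugin (POG), a chromone glycoside of Saposhnikovia root, in every passage from 3 to 12, and DMSO-treated rTSPCs received the same amount of dimethyl sulfoxide, the solvent, over the same passages. There were 2 POG arrays and 3 DMSO arrays. The labels call them biological replicates but do not state whether each had its own culture or animal, so a p-value here covers the array-to-array spread alone, and that spread may be technical.

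Wnt proteins are secreted lipid-modified ligands that bind Frizzled receptors and the co-receptors Lrp5 and Lrp6. In the canonical branch, binding recruits Dishevelled and inactivates a destruction complex built on Axin and Apc, in which casein kinase 1 and Gsk3b mark beta-catenin for degradation. Beta-catenin that escapes degradation enters the nucleus and joins the TCF/LEF factors on target genes, which in its absence are held down by Groucho corepressors of the Tle family. R-spondins, bound by Lgr4, Lgr5 or Lgr6, raise the number of Frizzled receptors on the cell surface by removing the ubiquitin ligases Rnf43 and Znrf3. Further branches act through Ror receptors, cell polarity or calcium. In tendon, Wnt signalling has been linked to the balance between tendon and other mesenchymal fates.

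TCF/LEF factors bind DNA at a core that starts with the letters CTTTG. The 4 words searched were CTTTGAT, the word CTTTGAA, the word CTTTGTT and the word CTTTGTA, each 7 letters long, none of which can overlap another on the same strand. They were looked for on both strands of the promoter windows that RefSeq gives on the GRCr8 assembly, 250 bases before to 50 bases after each annotated start. Of the 43 members, 32 had an entry, with 33 windows, and 3 windows (9.09%) held a word, against 17.1% of all 33469 windows. The 3 windows are shown because they are the only member windows with a match and because Axin2 and Nkd1 are textbook feedback targets of the pathway, while Fzd7 is a receptor whose signal fell. The words are in capitals, in windows at chr10:94398535-94398834 on the plus strand for Axin2, chr19:34722797-34723096 on the minus strand for Nkd1 and chr9:68425288-68425587 on the plus strand for Fzd7.
Axin2: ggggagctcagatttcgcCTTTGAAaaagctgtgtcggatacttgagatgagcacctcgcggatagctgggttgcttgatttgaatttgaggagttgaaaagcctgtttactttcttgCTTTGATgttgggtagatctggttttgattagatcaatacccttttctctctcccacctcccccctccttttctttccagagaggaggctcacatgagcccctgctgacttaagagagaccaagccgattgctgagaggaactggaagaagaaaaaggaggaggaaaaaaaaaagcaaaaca
Nkd1: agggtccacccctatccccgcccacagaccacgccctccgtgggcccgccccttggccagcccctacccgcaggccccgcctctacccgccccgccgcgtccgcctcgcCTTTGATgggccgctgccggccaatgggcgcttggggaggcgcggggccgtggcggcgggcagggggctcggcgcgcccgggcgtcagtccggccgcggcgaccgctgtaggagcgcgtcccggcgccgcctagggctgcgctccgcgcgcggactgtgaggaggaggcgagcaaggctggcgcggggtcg
Fzd7: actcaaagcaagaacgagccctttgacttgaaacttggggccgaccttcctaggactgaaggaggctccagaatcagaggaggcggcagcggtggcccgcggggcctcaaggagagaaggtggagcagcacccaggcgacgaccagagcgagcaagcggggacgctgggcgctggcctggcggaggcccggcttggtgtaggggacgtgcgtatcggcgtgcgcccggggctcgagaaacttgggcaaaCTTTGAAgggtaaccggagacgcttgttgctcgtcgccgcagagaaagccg
The Axin2 window held CTTTGAA at -232 and CTTTGAT at -132, counted from the start site (0) to the first base of the word. Of all windows, 2.12% held 2 or more words. The Nkd1 window held CTTTGAT at -141, and the Fzd7 window held CTTTGAA at -1. A match is a description of the letters in the window and was not tested as a binding site. The 11 members without an entry were Axin1, Csnk1g2, Dkk3, Fzd2, Fzd3, Fzd6, Lgr5, Lrp5, Lrp6, Sfrp1 and Sfrp4.

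POG-treated rTSPCs carried more Lgr5, Lgr4, Sfrp1, Sfrp2, Porcn, Wnt5a and Fzd4 signal and less signal of 17 other members, among them the nuclear factors Lef1 and Tcf7l1, the Groucho corepressors Tle1, Tle3 and Tle4, and the receptors Fzd3, Fzd5, Fzd7 and Fzd8. Signals are log2 values after robust multi-array average (RMA) processing, differences are POG minus DMSO on that scale given with their standard error (SE), and a member was called when its limma p-value, adjusted over all 10141 probe sets, was under 0.05. In all 24 of the 43 members (55.8%) were called, against 46.3% of all probe sets, so the share of called members was not far above the background. By direction, 7 members (16.3%) were higher in POG-treated cells, against 26.7% of all probe sets, and 17 (39.5%) were lower, against 19.6%. The POG and DMSO arrays did not overlap for 34 members (79.1%), 13 with both POG arrays above and 21 with both below every DMSO array, against 66.8% of all probe sets. A called difference of at least 1, which is 2-fold, was reached by 14 members (32.6%), 5 higher and 9 lower, against 18.8% of all probe sets. The median difference was -0.21 over the members and 0.11 over all probe sets.

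**Figure D1:**
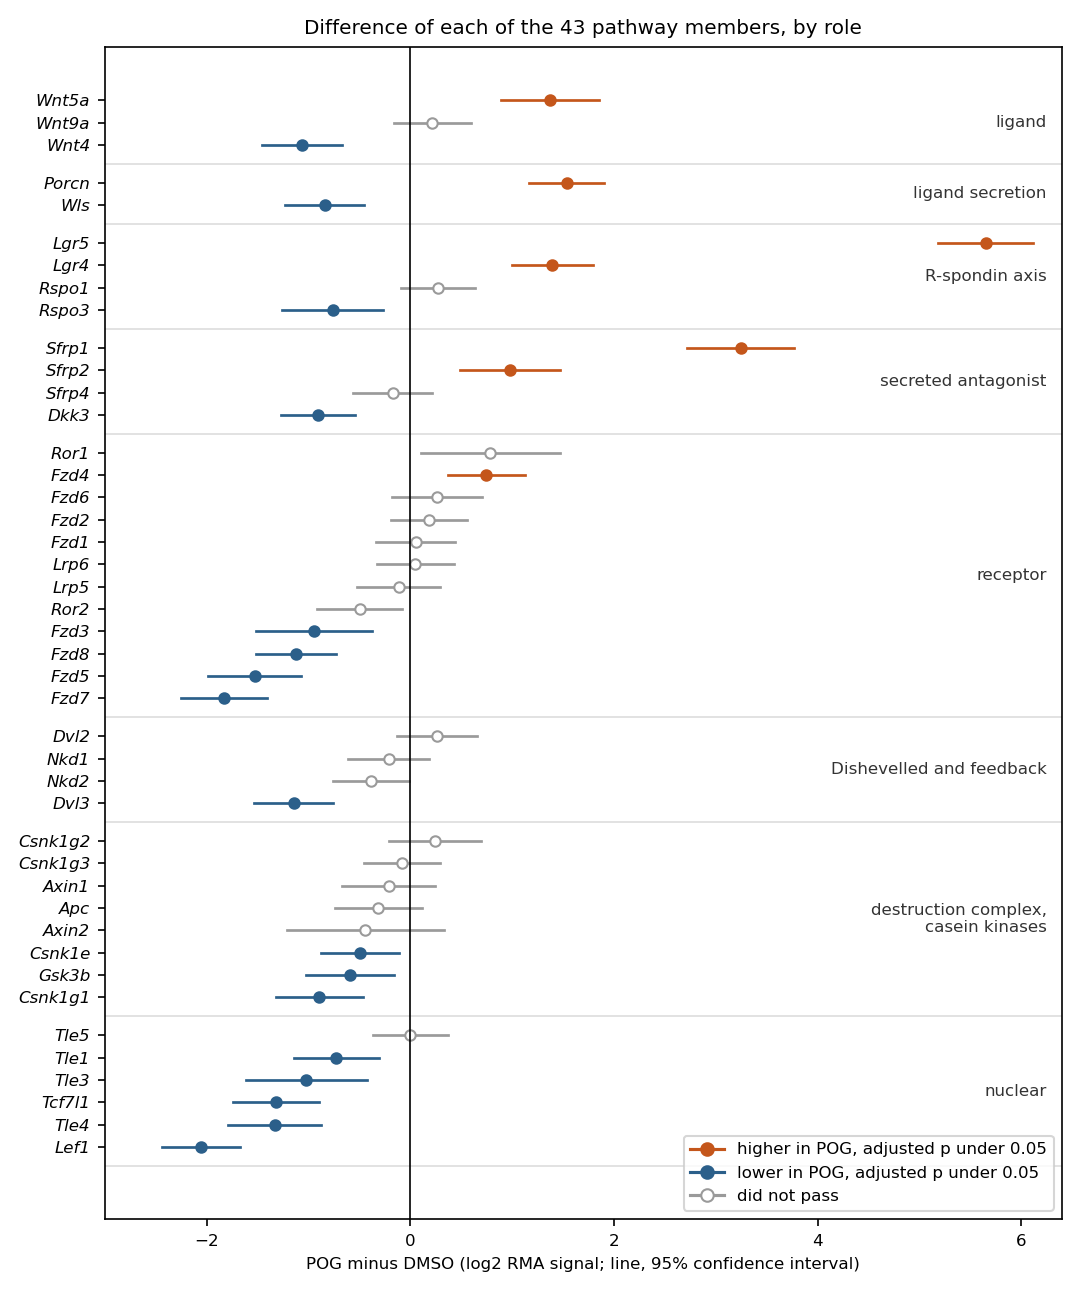
Difference between POG-treated and DMSO-treated rTSPCs (log2 RMA signal, horizontal axis, with 95% confidence intervals of the limma fit) for each of the 43 members, grouped by role and coloured by call. The point for Lgr5 lies at 5.65, far beyond the next highest member at 3.24, and 5 of the 6 nuclear factors lie left of 0 with a call.

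The R-spondin receptors gave the largest rise of the members. Lgr5, which encodes an R-spondin receptor known as a stem cell marker in intestine and hair follicle, had signals of 12.05 and 11.94 on the POG arrays, against 6.05, 6.30 and 6.68 on the DMSO arrays. The POG arrays lay within 0.11 of each other and more than 5 units above each DMSO array. The difference was 5.65 ± 0.21 (SE, n = 2 and 3 arrays, adjusted p = 6.75e-08, 95% confidence interval 5.19 to 6.12), a ratio of 50.3-fold between the deposited signals. This was the 13th largest measured rise among all 10141 probe sets. The mean of the DMSO arrays, 6.34, lay just above 6.17, the lower quartile of all signals, and without detection calls a signal of that size could not be told apart from background, in which case the ratio is a lower bound and the rank is that of the measured values only. Lgr4, the more widely expressed receptor of the same family, had 12.23 and 12.24 on the POG arrays, against 10.94, 10.96 and 10.62 on the DMSO arrays. Its groups were apart as well, and the difference was 1.40 ± 0.18 (adjusted p = 0.000209).

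Of the R-spondin ligands, Rspo1 had 13.48 and 13.42 on the POG arrays, against 13.12, 13.21 and 13.20 on the DMSO arrays. The POG values were the higher ones, but the difference of 0.27 ± 0.16 did not pass (adjusted p = 0.192, 95% confidence interval -0.09 to 0.64). Rspo3 fell by 0.76 ± 0.22 (adjusted p = 0.0186), with both group means under 6.17. Its difference was -0.60 without POG replicate 1. Its call was lost without DMSO replicate 3 (-0.67, adjusted p = 0.0525). With the replicate number as a block, which repeats that difference, it was lost as well (-0.67, adjusted p = 0.0587).

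**Figure D2:**
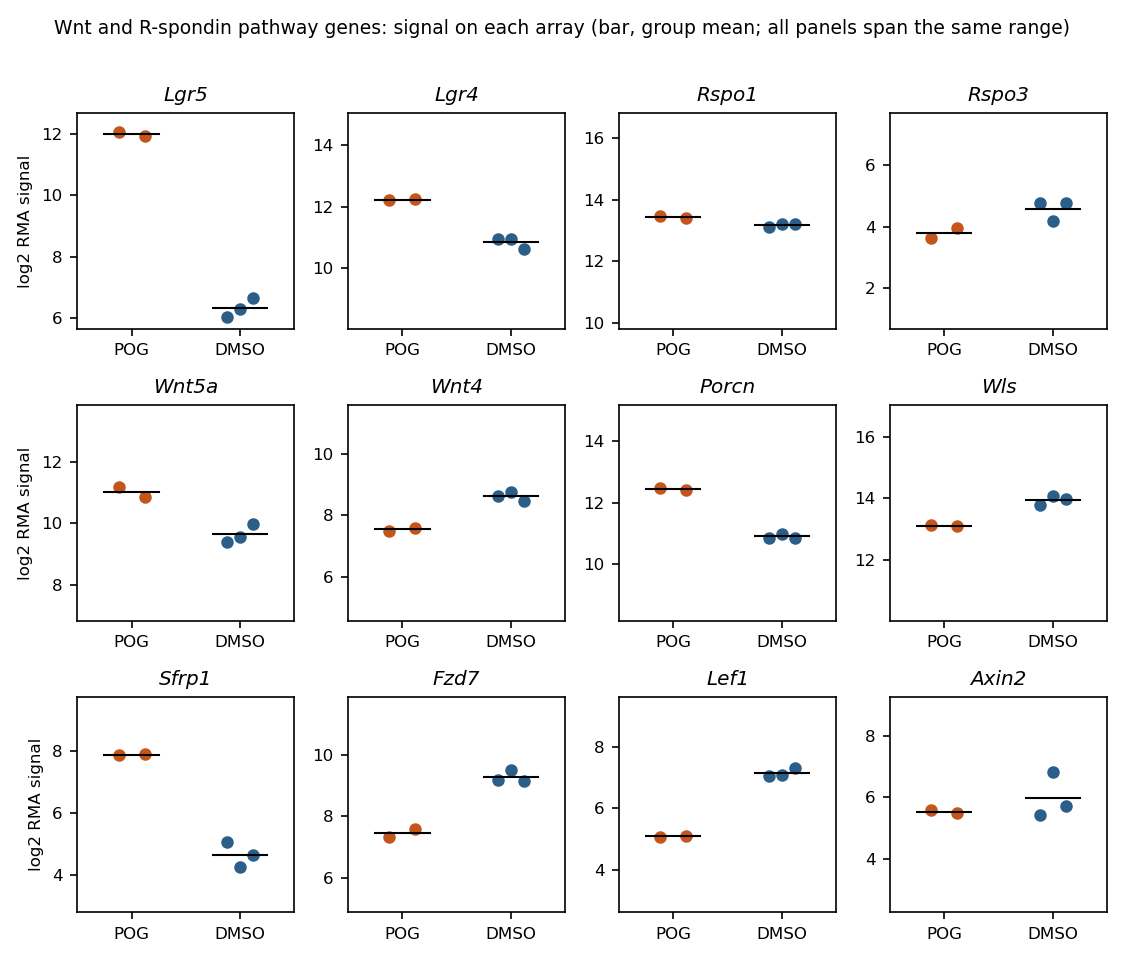
Log2 RMA signal on each array for selected members, with the 2 POG arrays left of the 3 DMSO arrays in each panel and a bar at each group mean. The POG points for Lgr5 lie near 12 and its DMSO points between 6.05 and 6.68, while the POG points for Lef1 lie below all of its DMSO points.

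The secreted ligands moved in different directions. Wnt5a, a ligand best known for signalling outside the beta-catenin branch, had 11.18 and 10.87 on the POG arrays, against 9.40, 9.57 and 9.99 on the DMSO arrays. Both POG values exceeded every DMSO value, with a rise of 1.37 ± 0.21 (adjusted p = 0.000706), a call that the methods' t-test did not give (adjusted p = 0.0554). Wnt4, a ligand of kidney and gonad development, had 7.49 and 7.60 on the POG arrays, against 8.62, 8.76 and 8.45 on the DMSO arrays. The groups were again apart, in the opposite direction, and Wnt4 fell by 1.07 ± 0.18 (adjusted p = 0.000985). Wnt9a had 4.50 and 4.36 on the POG arrays, against 4.32, 4.14 and 4.18 on the DMSO arrays. All of these lay under the lower quartile of signals (6.17) and the difference of 0.22 ± 0.17 did not pass (adjusted p = 0.311).

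The 2 genes needed to make and export Wnt ligands were both called, against 46.3% of all probe sets, with opposite signs. Porcn, the acyltransferase that attaches the lipid to Wnt proteins, had 12.47 and 12.41 on the POG arrays, against 10.87, 10.98 and 10.86 on the DMSO arrays. The spread within each group was small, and the rise was 1.54 ± 0.16 (adjusted p = 5.81e-05). Wls, the carrier that takes lipid-modified Wnt proteins to the cell surface, fell by 0.84 ± 0.17 (adjusted p = 0.00366). Its POG arrays gave 13.12 and 13.10, below the 13.78, 14.09 and 13.98 of the DMSO arrays.

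Among the secreted antagonists, Sfrp1 and Sfrp2, which carry a Frizzled-like domain and bind Wnt proteins, rose, and Dkk3, a divergent member of the Dickkopf family, fell. Sfrp1 had 7.87 and 7.91 on the POG arrays, against 5.07, 4.23 and 4.64 on the DMSO arrays. Its rise of 3.24 ± 0.24 (adjusted p = 4.12e-06) was the 61st largest measured among all probe sets. The DMSO mean of 4.65 was under the lower quartile of signals, so the rise is a lower bound if that signal was background. Sfrp2 rose by 0.98 ± 0.22 (adjusted p = 0.00542), a call lost without POG replicate 2 (0.79, adjusted p = 0.0668). Dkk3 fell by 0.90 ± 0.16 (adjusted p = 0.00168). Sfrp4 had 12.89 and 13.07 on the POG arrays, against 13.07, 13.29 and 13.10 on the DMSO arrays, and its groups touched, with a difference of -0.17 (adjusted p = 0.431).

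The 12 receptors and co-receptors held 1 higher, 4 lower and 7 uncalled members, with a median difference of -0.03. By share, 41.7% were called, against 46.3% of all probe sets, and 33.3% were lower, against 19.6%. Fzd7, a Frizzled with a role in stem cell upkeep in several tissues, had 7.32 and 7.60 on the POG arrays, against 9.19, 9.52 and 9.16 on the DMSO arrays. Every POG value was at least 1.5 units below every DMSO value, and Fzd7 fell by 1.83 ± 0.19 (adjusted p = 4.81e-05), with POG-treated cells at 0.281 times the DMSO level. Fzd5 had 5.31 and 5.84 on the POG arrays, against 7.21, 6.93 and 7.17 on the DMSO arrays. Fzd5 fell by 1.53 ± 0.20 (adjusted p = 0.000269), to a POG mean under the lower quartile of signals. The POG mean of Fzd3, described below, was under it as well. Fzd8 had 8.02 and 8.26 on the POG arrays, against 9.38, 9.26 and 9.15 on the DMSO arrays. Fzd8 fell by 1.12 ± 0.18 (adjusted p = 0.000711), with no overlap between groups. Fzd3, known for axon guidance and cell polarity, fell by 0.95 ± 0.25 (adjusted p = 0.0133), but its POG arrays lay apart at 6.39 and 5.49, and without POG replicate 2 the difference was -0.50 (adjusted p = 0.142).

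Fzd4, the receptor that also binds Norrin, was the called receptor that rose, by 0.75 ± 0.17 (adjusted p = 0.00563). Its call was lost without POG replicate 1 (0.63, adjusted p = 0.0532). The Frizzled genes Fzd2 and Fzd1 did not pass. Fzd2 had 13.31 and 13.36 on the POG arrays, against 13.18, 13.24 and 13.03 on the DMSO arrays. Fzd1 had 12.46 and 12.15 on the POG arrays, against 12.22, 12.29 and 12.24 on the DMSO arrays. The intervals of the difference ran from -0.19 to 0.56 for Fzd2 and from -0.33 to 0.44 for Fzd1, which leaves room for changes of less than 2-fold in either gene, and the sign for Fzd1 turned when arrays were centred on their medians. Fzd6, Lrp5 and Lrp6 differed by 0.26, -0.11 and 0.05 and did not pass. The Ror kinases, receptors of Wnt5a, were both just short of the threshold with opposite signs. Ror1 differed by 0.79 ± 0.31 (adjusted p = 0.0585) and Ror2 by -0.50 ± 0.19 (adjusted p = 0.0513). Ror1 passed without DMSO replicate 1 (0.94, adjusted p = 0.0377) or DMSO replicate 2 (0.97, adjusted p = 0.0457). It also passed in limma among the brighter probe sets (adjusted p = 0.0359) and with trend and robust moderation (adjusted p = 0.0308). Without DMSO replicate 3 the Ror1 difference was 0.445 (adjusted p = 0.124). It was 0.56 without POG replicate 1 and 1.01 without POG replicate 2. Ror2 passed after centring or quantile normalization. Its difference was -0.72 without POG replicate 1 and ran from -0.72 to -0.28 over the alternatives.

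Of the 4 Dishevelled and feedback genes, 1 was called (25%, against 46.3% of all probe sets). Dvl3, a Dishevelled scaffold that carries the signal from Frizzled, had 12.89 and 12.80 on the POG arrays, against 14.01, 14.13 and 13.83 on the DMSO arrays. The arrays of each group lay close together, and Dvl3 fell by 1.15 ± 0.17 (adjusted p = 0.000606). Dvl2, its paralogue, had 7.38 and 7.55 on the POG arrays, against 7.09, 7.37 and 7.15 on the DMSO arrays, and did not pass (0.26, adjusted p = 0.244). Nkd2, a Naked cuticle protein that binds Dishevelled and limits its signal, had 9.54 and 9.51 on the POG arrays, against 9.87, 10.04 and 9.83 on the DMSO arrays. The groups were apart, but the difference of -0.39 ± 0.17 did not pass (adjusted p = 0.0828). Nkd1, whose promoter window held a TCF/LEF word, differed by -0.21 (adjusted p = 0.346).

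The 8 members of the destruction complex and the casein kinase 1 family held 3 lower and 5 uncalled genes, with a median difference of -0.38. The share called was 37.5%, against 46.3% of all probe sets, and all of these were lower, against 19.6% of all probe sets. Csnk1g1, a membrane-bound casein kinase, fell by 0.89 ± 0.19 (adjusted p = 0.00434), but the call was lost without POG replicate 1 (-0.70, adjusted p = 0.0510). Gsk3b, the kinase that marks beta-catenin, had 14.73 and 14.45 on the POG arrays, against 15.30, 15.32 and 14.93 on the DMSO arrays. Gsk3b fell by 0.59 ± 0.19 (adjusted p = 0.0306), a call lost when either POG array or either of DMSO replicates 1 and 2 was left out, with differences of -0.73 without POG replicate 1, -0.45 without POG replicate 2, -0.54 without DMSO replicate 1 and -0.53 without DMSO replicate 2. Csnk1e fell by 0.49 (adjusted p = 0.0400), a call that, of the arrays left out in turn, held only without DMSO replicate 1. Without DMSO replicates 2 or 3 or POG replicates 1 or 2 the Csnk1e difference was -0.44, -0.46, -0.48 and -0.51. Its call was lost with the replicate number as a block (-0.46, adjusted p = 0.104), which repeats the difference without DMSO replicate 3.

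The scaffold genes of the complex were not called. Apc had 10.87 and 10.43 on the POG arrays, against 10.90, 10.89 and 11.10 on the DMSO arrays, a difference of -0.31 (adjusted p = 0.202). Axin1 differed by -0.21, with POG replicate 1 at 8.43 and POG replicate 2 at 9.04. Axin2, a feedback inhibitor that the pathway itself induces, was chosen for its values on every array after they were seen. It had 5.59 and 5.47 on the POG arrays, against 5.41, 6.81 and 5.70 on the DMSO arrays, so that DMSO replicate 2 stood apart and the groups overlapped. The difference of -0.44 ± 0.34 did not pass (adjusted p = 0.311, 95% confidence interval -1.21 to 0.33), both means were under the lower quartile of signals, and without DMSO replicate 2 the difference was -0.03. Csnk1g2 had 11.00 and 10.96 on the POG arrays, against 10.48, 10.66 and 11.07 on the DMSO arrays, and neither it nor Csnk1g3 passed.

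Of the 6 nuclear factors 5 were lower, against 19.6% of all probe sets, with a median difference of -1.17. Lef1, a TCF/LEF factor that carries beta-catenin to DNA and is itself a Wnt target, had 5.06 and 5.11 on the POG arrays, against 7.04, 7.07 and 7.30 on the DMSO arrays. The POG values were below the lower quartile of signals and the DMSO values above it. Lef1 fell by 2.05 ± 0.17 (adjusted p = 1.08e-05), the largest fall among the members, with POG-treated cells at 0.241 times the DMSO level. Tcf7l1, a family member that mostly represses, had 6.83 and 7.14 on the POG arrays, against 8.13, 8.30 and 8.49 on the DMSO arrays. Its groups did not overlap, and it fell by 1.32 ± 0.19 (adjusted p = 0.000410).

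The Groucho corepressors bind TCF/LEF factors in place of beta-catenin. Tle4 had 5.65 and 5.86 on the POG arrays, against 7.41, 6.85 and 7.00 on the DMSO arrays. Tle4 fell by 1.33 ± 0.21 (adjusted p = 0.000662), with no overlap between groups, to a POG mean under the lower quartile of signals. Tle3 had 8.29 and 7.43 on the POG arrays, against 8.61, 9.17 and 8.86 on the DMSO arrays. Both POG values were below the DMSO values but far from each other, and the difference of -1.02 ± 0.27 (adjusted p = 0.0114) came to -0.59 without POG replicate 2 (adjusted p = 0.133). Tle1 fell by 0.73 (adjusted p = 0.0107), a call lost without POG replicate 1 (-0.76, adjusted p = 0.0502) and without POG replicate 2 (-0.69, adjusted p = 0.0718). Tle5, a short family member that lacks most of the corepressor domains, had 14.53 and 14.60 on the POG arrays, against 14.55, 14.64 and 14.50 on the DMSO arrays. The groups lay on top of each other, with a 95% confidence interval of -0.37 to 0.37 for the difference.

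Over all 19 uncalled members, 17 had a confidence interval within 1 log2 unit of 0 on both sides. The same held for 4970 of the 5447 uncalled probe sets of the whole table, a similar share. The median of the members, set against the mean of each on the DMSO arrays, was -0.28 on POG replicate 1 and -0.19 on POG replicate 2, while the DMSO arrays lay between -0.04 and 0.05. A difference of -1 or lower was measured for 20.9% of the members and 8.84% of all probe sets, and one of 0 or lower for 60.5% and 43.7%.

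**Figure D3:**
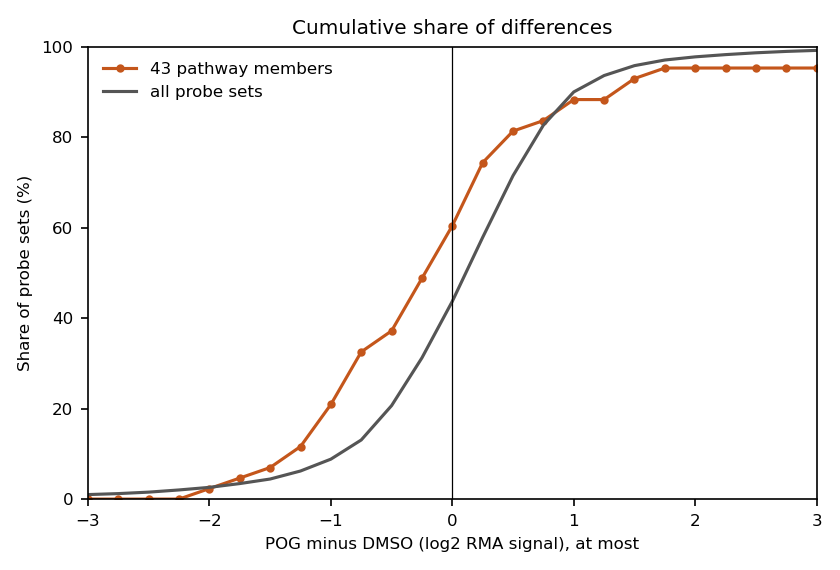
Cumulative share in percent (vertical axis) of the 43 members and of all 10141 probe sets with a difference of POG minus DMSO (log2 RMA signal) at or below the value on the horizontal axis. The line of the members lies above that of all probe sets at -1, with 20.9% against 8.84%.

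Other genes of the pathway were read from 4 lists by role, whose counts are set against the 46.3% of all probe sets called, 26.7% higher and 19.6% lower. Of 16 measured extracellular modulators, 7 were higher (43.8%), 6 lower (37.5%) and 3 not called, with a median difference of 0.03. Cthrc1, a secreted protein that links Wnt, Frizzled and Ror2, had 12.86 and 13.32 on the POG arrays, against 10.03, 9.85 and 10.37 on the DMSO arrays, a rise of 3.01 ± 0.22 (adjusted p = 3.75e-06). The heparan sulphate proteoglycan Gpc3 rose by 2.12, the sulphatase Sulf2 by 2.28, Igfbp4 by 2.01 and the Wnt-binding antagonist Frzb by 1.29. Both Frzb means and the DMSO mean of Gpc3 (4.52) were under 6.17 and may be background. The other measured heparan sulphate proteoglycans of the list, added after their values were seen, were called lower. Their differences were -1.297 for Gpc4, -1.272 for Sdc4, -0.998 for Gpc1 and -0.825 for Sdc1. Partners of beta-catenin are meant broadly here, with general complex subunits such as Cul1 and Hdac1 among them, and beta-catenin itself (Ctnnb1) is not. Of 15 measured partners, 7 were higher, 0 lower and 8 not called, so that 46.7% were called, close to the background of 46.3%. The median was 0.29, and 0 were lower at an unadjusted p under 0.05 in limma or in the methods' t-test. The corepressor subunits Tbl1xr1 and Tbl1x rose by 1.14 and 0.99, the ubiquitin ligase Siah1 by 1.09, the phosphatase subunit Ppp2r5c by 0.58 and the deubiquitinase Usp7 by 0.57. These partner calls were fragile, since 2 were left without POG replicate 2, 3 without POG replicate 1, 3 without DMSO replicate 2, 4 without DMSO replicate 3 and 3 with the replicate number as a block.

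Of 21 measured genes of the polarity and calcium branches, 3 were higher (14.3%, against 26.7% of all probe sets), 9 lower (42.9%, against 19.6%) and 9 not called, with a median of 0.04. Nfatc1, a transcription factor activated by calcineurin, had 7.45 and 7.23 on the POG arrays, against 10.91, 11.42 and 11.05 on the DMSO arrays. Its POG and DMSO values were more than 3 units apart, and Nfatc1 fell by 3.79 ± 0.20 (adjusted p = 4.75e-07). The formin Daam1, which binds Dishevelled, fell by 2.36. The phospholipase Plcb4 fell by 1.82, and the calcium-dependent kinase Camk2g and the cytoskeletal kinase Rock2 were lower as well, with differences of -1.28 and -0.89. The count of 9 lower genes was 6 without either POG array, and that of 3 higher genes was 1 without either POG array and 1 with the replicate number as a block.

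Of 33 measured genes that are known as Wnt targets in some tissue, 7 were higher (21.2%, against 26.7% of all probe sets), 17 lower (51.5%, against 19.6%) and 9 not called, with a median of -0.53. Most of them are also controlled by other pathways. Ptgs2, the inducible cyclooxygenase, fell by 5.68 ± 0.17 (adjusted p = 1.79e-08). The urokinase receptor Plaur, the matricellular gene Smoc2 and the Notch ligand Jag1 were lower too, with differences of -4.27, -3.41 and -2.69. The gap junction gene Gja1 rose by 4.28 ± 0.17 (adjusted p = 9.70e-08). Chosen after their values were seen, Ccnd1 fell by 0.53 (adjusted p = 0.0291) and Myc differed by 0.31 (adjusted p = 0.195).

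**Figure D4:**
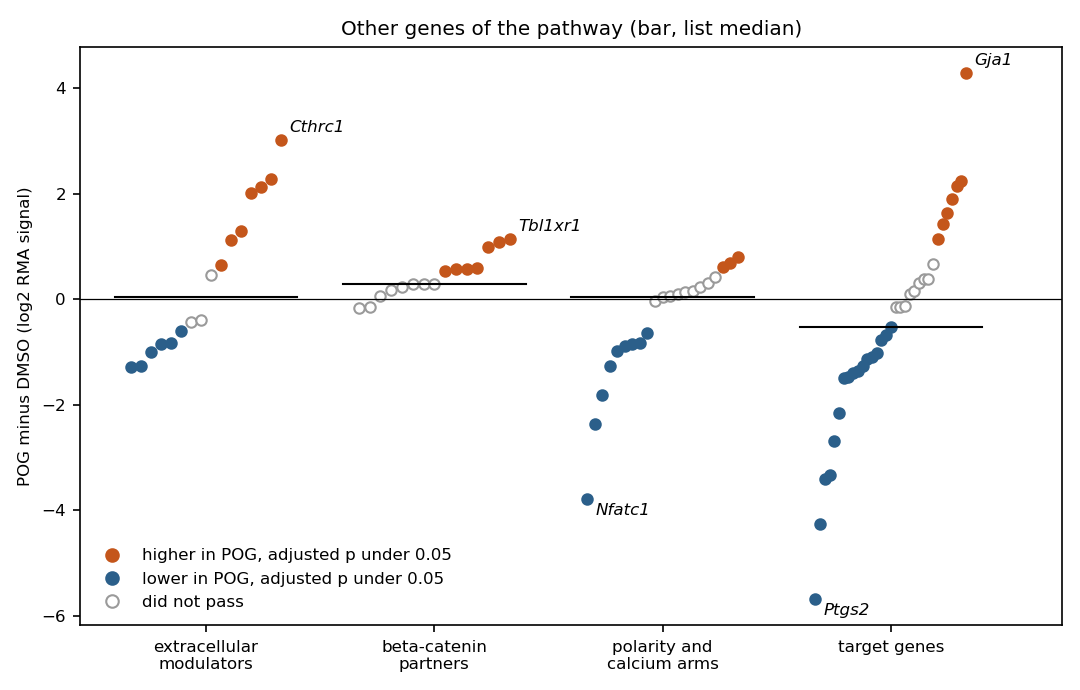
Difference of POG minus DMSO (log2 RMA signal, vertical axis) for each measured gene of the 4 other pathway lists, in order within a list and coloured by call, with a bar at each list's median. The medians lie at 0.03, 0.29, 0.04 and -0.53, and Ptgs2 at -5.68 and Gja1 at 4.28 mark the range.

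Over the whole table, medians of the arrays were 8.48 and 8.52 for POG and 8.36 to 8.45 for DMSO. Of the tendon and mesenchymal markers, 11 were measured, 3 higher and 1 lower, with a mean signal of 14.5 to 14.7 on the POG arrays and 13.1 to 13.2 on the DMSO arrays. The higher ones were Dcn (8.24), Fmod (6.57) and Thbs4 (2.68), Itgb1 was lower (-0.78), and the median difference of the list was -0.14. Col1a1, the main tendon collagen, was at 19.18 or above on each array, while Tnmd, Mkx and Col1a2 were not analysed here. All 3 measured cycling markers rose, with means of 9.88 to 10.1 on the POG arrays and 7.78 to 8.19 on the DMSO arrays. Of 7 measured smooth muscle markers 6 fell, with means of 10.1 on both POG arrays and 13.8 to 14.0 on the DMSO arrays. All 4 measured leukocyte markers rose, with means of 5.99 to 6.44 on the POG arrays and 4.35 to 4.58 on the DMSO arrays. The DMSO mean of each was under the lower quartile of signals (6.17), as was the POG mean of Fcer1g, so those means may be background. The POG means of Lyz2, Cd68 and Cd53 lay above it, at 7.10, 6.70 and 6.295. Ptprc (CD45), Itgam and Cd3e were not analysed here. Of all probe sets, 26.7% were higher and 19.6% lower. Of the 2 measured endothelial markers Kdr rose by 1.85 and Cd34 fell by 1.39, with means of 5.48 to 5.86 on the POG arrays and 5.26 to 5.65 on the DMSO arrays, and no epithelial marker was analysed. The cycling, smooth muscle and leukocyte levels moved with the Wnt pathway genes between the groups, and their part in the results was not tested. In bulk RNA, fewer cells of a type and less RNA per cell cannot be told apart.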

How the data were processed

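Total RNA of 5 samples of rTSPCs at passage 12 was hybridised to the Affymetrix Rat Transcriptome Array 1.0. The authors deposited log2 signals per probe set after RMA (no version given) with default settings and global scaling, in 2 tables that held the same values (largest difference 0). The sources used here do not give their rule for keeping 10141 probe sets, and the platform annotation carries another array name, so gene names rest on matched probe set identifiers, and all 43 member symbols were found unchanged in a GRCr8 gene table. Signals reached 19.47 on the log2 scale, above the range usual for RMA, so ratios hold on the deposited scale only. Precision is limited by the array number, and the study states more arrays a group than the POG arrays here. POG and DMSO arrays were compared with limma 3.58.1 (R 4.3.3, lmFit and eBayes, two-sided, Benjamini-Hochberg over the whole table, threshold 0.05), which was also tested on simulated data. Array values were given for Lgr5, for called members with a difference of at least 1 and for up to 2 uncalled members a role with the highest signal. Those of Wls, Gsk3b and Axin2, and single arrays of Fzd3 and Axin1, were added after their values were seen. From each other list, the 5 smallest p-values were named, with further genes where stated. Members, lists and tests were chosen with earlier results of these data known. The 13 alternatives were the second table, centring, quantile normalization, the 5071 brighter probe sets (mean at or above the median), trend and robust moderation, array weights, the replicate block, the methods' t-test and leaving out each array.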

Additional observations from a re-analysis of the deposited data

How the results depend on the processing

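All 24 called members kept their direction, and 14 stayed past the threshold, under every alternative that measured them, 13 for most and 12 for those not among the brighter probe sets. Of these alternatives, the second table held the same values and could not change a call. The replicate block has DMSO replicate 3 alone under its number, so it gave the same differences as leaving that array out. The methods' t-test lost the calls of Wnt5a, Sfrp2, Csnk1e, Gsk3b, Tle1, Rspo3, Csnk1g1, Fzd3 and Tle3. Of the 19 uncalled members, Ror1, Rspo1, Nkd2 and Ror2 were called under at least 1 alternative. Lgr5 differed by 5.51 to 5.82, with a highest adjusted p of 0.00954 in the methods' t-test. The lower members numbered 10 among the brighter probe sets, where 25 members were measured, and 10 in the methods' t-test, and 12 to 16 with 1 array omitted. The members' median was -0.30 after centring, -0.34 after quantile normalization and -0.28 to -0.17 with an array left out, while these scalings moved the median of all probe sets by -0.09 and -0.06. Signs turned for Fzd1 (-0.0317 centred, -0.10 to 0.21 with an array left out), Lrp6 (-0.0367 centred, -0.0053 quantile, -0.05 to 0.15), Tle5 (-0.085 centred, -0.032 quantile, -0.0105 with array weights, -0.03 with the block, -0.0333 to 0.04) and Axin1 (-0.517 to 0.0933).

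Calls over all probe sets came to 2894 (1560 higher) among the brighter ones, 2078 (1064 higher, 1014 lower) in the t-test and 2900 to 4347 (1586 to 2480 higher, 1314 to 1931 lower) with an array left out, lowest without POG replicate 2. The brighter probe sets measured fewer genes of each list. They gave 3 higher of 9 extracellular modulators, 5 lower of 11 polarity and calcium genes and 3 higher of 24 targets. These counts, and the 10 lower of 25 members, stand beside 1560 higher and 1334 lower of all 5071 brighter probe sets. The t-test gave 3 lower modulators, 2 higher beta-catenin partners, 0 higher polarity and calcium genes (2 at an unadjusted p under 0.05, against 3 adjusted and 4 unadjusted in limma) and 4 higher targets. Higher partners numbered 2 to 6, and polarity and calcium genes 1 to 3 higher and 6 to 9 lower, with an array left out. Same-numbered arrays did not deviate together (correlations of 0.0042 and 0.0052). With the replicate block, 7 members were higher and 15 lower, with 3 higher partners and 1 higher polarity and calcium gene. The causes were not tested. Signals under the lower quartile may be background, which limits Wnt9a, Rspo3, Axin2 and Nkd1 in both groups. It also limits Lef1, Tle4, Fzd5 and Fzd3 in the POG group and Sfrp1 in the DMSO group.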
